A study of Mus musculus with 6 samples.

Results

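The genes described here encode histones and the enzymes and remodelling proteins that act on chromatin, in hepatic stellate cells with and without Sept4. They were taken by symbol in the array annotation: names starting with Hist, Hdac, Jmjd, Jarid, Smarc or Dnmt, or with Chd, Kdm, Brd or Sirt and a digit. The names picked out 84 of 16446 genes with a symbol, measured by 96 probes. Where a gene had more than 1, its brightest over the 6 arrays was used. There were 20 histone genes and 64 genes of enzymes and remodellers, and no gene was annotated with a Kdm symbol, since the annotation uses the older Jmjd and Jarid names. All 84 matched a RefSeq gene, 49 by current symbol and 35 through a synonym.

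The 6 single-colour arrays held total RNA of hepatic stellate cells, the vitamin A-storing cells of the liver that become collagen-making myofibroblasts in fibrosis. There were 3 arrays of wild type mice and 3 of SEPT4-KO mice, which lack the septin Sept4. Mice of both genotypes had been given the hepatotoxin carbon tetrachloride (CCl4) to induce cirrhosis. The sources used here do not give age, sex, strain, dose, or whether an array holds 1 mouse or a pool. The p-values therefore measure only how these samples vary, and that variation may be technical. The labels name no batch, and effects of processing on the genotypes were not tested. No probe carries the Sept4 symbol, so the genotype labels were not checked against the deleted gene.

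Each array gave a log2 signal for 23473 probes. Array medians were all 5.02, and the highest values were 15.7 to 15.8 in wild type and 16.6 to 16.8 in knockout arrays. Correlations across probes were 0.967 to 0.971 between genotypes and at least 0.981 within them. All 11 stellate cell markers on the list used (Des, Lrat, Pdgfrb, Reln, Hand2, Lhx2, Cygb, Col1a1, Col1a2, Col3a1 and Acta2) were measured well above the lowest signals. Their summed linear signal was 46600 to 52700 in wild type and 53000 to 54300 in knockout arrays, with 7 higher and 3 lower in the knockout. This sum is mostly the signal of Acta2, which fell by 0.56, and Col3a1, which rose by 2.09. It therefore hides opposite moves of single markers, among them rises of Lrat (2.41) and Cygb (2.05) and a fall of Col1a2 (-1.20). Of other cell types, the summed signal of 4 measured hepatocyte markers was 334 to 343 and 258 to 285, with 1 higher and 1 lower. It is mostly the signal of Ttr, which fell by 0.42. The summed signal of 5 macrophage markers was 1820 to 2000 and 1860 to 1920, and is mostly the signal of Marco, which did not pass. Among these 5, Clec4f was higher by 0.52 and Emr1 differed by -1.27. Those of 4 endothelial markers (124 to 141 and 117 to 150) and 3 cholangiocyte markers (30.5 to 37.9 and 38.9 to 46.9) held no gene that passed. That of 5 lymphocyte markers was 18.7 to 25.2 and 35.1 to 47.0, with Cd3g higher and Cd3e, Cd3g and Nkg7 at the lowest value on some arrays. The part of other cells in the values below was not tested, and in cell preparations such as these a change in the mix of cells and a change in RNA per cell cannot be told apart.

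Eukaryotic DNA is wound around octamers of the core histones H2A, H2B, H3 and H4, and linker histone H1 binds where DNA enters and leaves. Most core histone genes sit in clusters, are transcribed as cells copy their DNA, and give mRNAs that end in a stem-loop in place of a poly(A) tail. Deacetylases and demethylases remove marks from histone tails, DNA methyltransferases mark cytosine, bromodomain proteins read acetylated lysine, and SWI/SNF, ISWI and CHD proteins use ATP to move or eject nucleosomes. In stellate cells, DNA methylation and histone marks are known to be rewritten as the cells turn into myofibroblasts.

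The histone members are mostly neighbours, with 18 of 20 on mouse chromosome 13. Their promoters are shown for 4 genes of core histone H2B and 1 of H2A because these include rises and falls within the same family. Each window runs from 250 bases before the annotated start to 50 after it, taken from RefSeq on GRCm38.p6. Capitals mark the motifs searched on both strands: the CCAAT box (CCAAT), the octamer element of H2B promoters (ATTTGCAT) and the TATA box (TATAAA). Matches were taken at any place in the window and on either strand. Whether a match lies where such an element works was not tested. None of these strings lies within another, though neighbouring matches can share end bases.
Hist1h2ba (RefSeq H2bc1), chr13:23934107-23934406, minus strand: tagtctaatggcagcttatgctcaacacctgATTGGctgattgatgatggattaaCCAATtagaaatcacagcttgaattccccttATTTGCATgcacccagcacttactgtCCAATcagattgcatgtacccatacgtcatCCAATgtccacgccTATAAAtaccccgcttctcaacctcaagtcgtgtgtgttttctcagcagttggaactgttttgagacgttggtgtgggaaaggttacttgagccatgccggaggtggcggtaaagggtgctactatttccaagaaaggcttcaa
Hist1h2bm (RefSeq H2bc14), chr13:21721794-21722093, plus strand: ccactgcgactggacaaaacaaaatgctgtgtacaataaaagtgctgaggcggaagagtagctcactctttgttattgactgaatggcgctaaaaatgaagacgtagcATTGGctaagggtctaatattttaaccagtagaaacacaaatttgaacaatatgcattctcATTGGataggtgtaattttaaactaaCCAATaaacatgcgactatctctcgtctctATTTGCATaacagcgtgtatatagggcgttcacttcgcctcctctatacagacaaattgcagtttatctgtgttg
Hist1h2bh (RefSeq H2bc9), chr13:23543395-23543694, minus strand: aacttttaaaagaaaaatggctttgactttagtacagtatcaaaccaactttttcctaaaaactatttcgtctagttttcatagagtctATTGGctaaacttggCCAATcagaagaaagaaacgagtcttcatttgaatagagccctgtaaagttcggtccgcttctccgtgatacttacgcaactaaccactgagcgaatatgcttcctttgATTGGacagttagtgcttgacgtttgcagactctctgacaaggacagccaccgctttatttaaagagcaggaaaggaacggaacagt
Hist1h2bp (RefSeq H2bc22), chr13:21787238-21787537, plus strand: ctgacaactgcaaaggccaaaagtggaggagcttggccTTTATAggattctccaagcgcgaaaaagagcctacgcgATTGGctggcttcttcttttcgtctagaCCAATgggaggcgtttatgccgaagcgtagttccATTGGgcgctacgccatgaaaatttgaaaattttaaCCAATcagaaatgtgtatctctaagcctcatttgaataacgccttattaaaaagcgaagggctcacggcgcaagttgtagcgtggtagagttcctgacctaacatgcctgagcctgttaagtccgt
Hist1h2af (RefSeq H2ac10), chr13:23533625-23533924, plus strand: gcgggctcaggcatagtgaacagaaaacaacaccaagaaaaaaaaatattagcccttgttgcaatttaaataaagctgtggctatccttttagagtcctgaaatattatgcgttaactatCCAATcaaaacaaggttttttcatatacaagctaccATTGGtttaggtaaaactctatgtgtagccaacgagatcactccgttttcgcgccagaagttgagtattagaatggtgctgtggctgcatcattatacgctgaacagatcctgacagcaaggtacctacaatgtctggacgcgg

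The string CCAAT, on either strand, was present in the windows of all 20 histone members, against 37.4% of the 32851 windows in the table. TATAAA was in 14 of 20 (70.0%), against 13.6%, and ATTTGCAT in 5 of 20, against 1.74%. Among the 6 genes of H2B, ATTTGCAT was found in Hist1h2ba and Hist1h2bm, which fell, and in Hist1h2bk, which rose. It was not found in the windows of Hist1h2bh and Hist1h2bp, which rose, or of Hist3h2ba, which did not pass. The windows of Hist1h2ba and its divergent neighbour Hist1h2aa share 220 bases. Matches in that stretch, among them the ATTTGCAT of both genes and the TATAAA of Hist1h2ba, are counted for each gene. Enzyme and remodeller members had 76 windows for 52 genes, of which 32.9% held CCAAT, 5.26% TATAAA and 2.63% ATTTGCAT.

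The comparison of the genotypes asks how loss of Sept4 alters these genes in cells of the cirrhotic liver. At an adjusted p of 0.05 in limma, with Benjamini-Hochberg adjustment over all probes, 27 of 84 members rose in the knockout, 15 fell and 42 did not pass. The share that passed, 42 of 84, stands beside 44.3% of all genes by their brightest probe and 42.7% of all probes. The members that rose were 32.1%, against 29.4% of all genes, and those that fell were 17.9%, against 14.9%. These shares are near the background and are no result about the set as a whole. A difference of at least 2-fold was seen in 8 members that passed (9.52%), against 6.40% of all genes. The arrays of both genotypes did not overlap in 58 members (69.0%), against 57.6% of all genes. The knockout was the higher group in 38 of 84 members and the lower in 20 of 84. Over all 16446 genes these counts were 6109 (37.1%) and 3356 (20.4%).

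Scaling moved the balance of directions. The median difference of all probes was 0.12 on the log2 scale in the deposited values, 0.02 once quantile normalised and 0.01 with cyclic loess. Over all genes by their brightest probe it was 0.14, 0.05 and 0.04, and the members' median was 0.15, 0.08 and 0.06. The share of called members that were higher was 64.3% in the deposited values, 53.3% once quantile normalised (24 rose, 21 fell) and 51.1% with cyclic loess (23 and 22). The same shares among all called probes were 62.6%, 52.5% and 51.5%. Relative to the all-probe shift of 0.12, 44 members lay above and 40 below. No called member changed direction under either scaling, but Chd4, Hist1h2bp and Jmjd2c no longer passed under both, and Brd2 under cyclic loess.

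**Figure D1:**
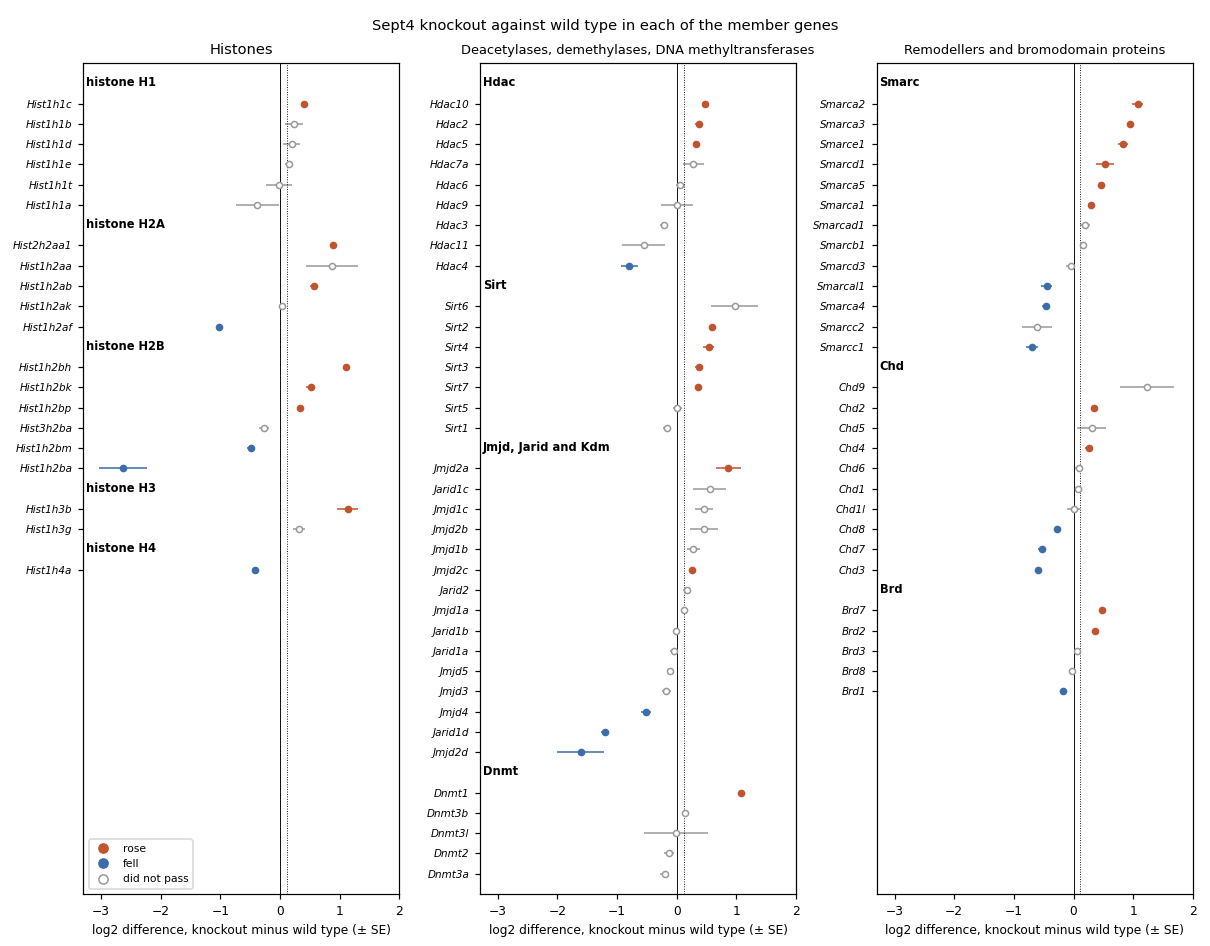
Log2 difference between knockout and wild type (± SE, 3 arrays per genotype) for each of the 84 members, by family; filled points passed an adjusted p of 0.05 and open points did not, and the dotted line is the median of all probes, 0.12. Rises and falls occur side by side within the H2A, H2B, Smarc and Chd families, and Hist1h2ba lies farthest from 0 among these brightest probes.

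Calls were more frequent at higher signal, among the members as among all genes. The counts by family and by list below stand beside the shares of all genes given here, and are no result about a family or list. Of 16 members with a mean signal below 4, 3 passed (18.8%), as did 15.8% of all genes there. Between 4 and 7, 13 of 27 passed (48.1%, against 49.3%), and between 7 and 10, 16 of 29 (55.2%, against 68.2%). At 10 and above, 10 of 12 passed (83.3%, against 71.8%). Of these 10, 9 rose and 1 fell, and between 7 and 10 there were 9 rises and 7 falls. The directions of all genes in these bands were not counted, so this split is no result about the members. Of the 42 members that did not pass, 24 had a 95% confidence interval within 0.5 either side of 0, so a change beyond that size lies outside their intervals. In 9 the interval reached 1 or beyond, so a 2-fold change lies within it.

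**Figure D2:**
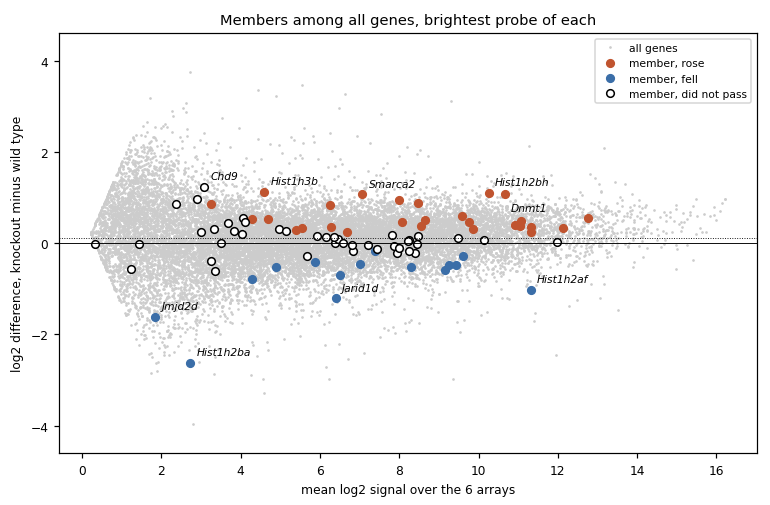
Mean log2 signal over the 6 arrays against the log2 difference between the genotypes, for the brightest probe of every gene (grey) and for the members (large points). Members fall within the spread of all genes of like signal, and the farthest fall shown, Hist1h2ba, is of a gene with low signal.

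Among the linker histones, 1 of 6 members passed. Hist1h1c, a widely expressed H1 subtype, read 10.70, 10.75 and 10.68 in wild type arrays and 11.06, 11.14 and 11.14 in knockout arrays. The groups did not overlap, and the rise was 0.40 ± 0.05 (SE) on the log2 scale (limma adjusted p = 0.00307). After quantile normalisation the rise was 0.22 and still passed. The subtypes Hist1h1a, Hist1h1b, Hist1h1d and Hist1h1e differed by -0.38 to 0.24 and did not pass. The testis-specific Hist1h1t sat at the floor, the lowest value of an array, on 2 wild type and all 3 knockout arrays, so no difference can be given.

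By the brightest probe of each gene, core histone H2A genes moved in opposite directions, with 2 of 5 members higher and 1 lower. After either rescaling the counts were 2 and 2. Signal from related histone genes on these probes, and on those of H2B below, was not tested. Hist1h2af read 11.89, 11.87 and 11.72 in wild type arrays and 10.81, 10.81 and 10.82 in knockout arrays. Every knockout array was lower, and the gene fell by 1.02 ± 0.06 (SE), or 2.02-fold (limma adjusted p = 0.000578). Hist2h2aa1, of a smaller cluster on another chromosome, read 8.09, 8.02 and 7.97 against 8.91, 8.91 and 8.92. Its groups stood apart, and it rose by 0.89 ± 0.05 (SE; limma adjusted p = 0.000551). Hist1h2ab rose by 0.56, from 12.48 ± 0.07 to 13.05 ± 0.06 (SD, n = 3), by its brighter probe. Its other probe differed by 0.74 and did not pass (limma adjusted p = 0.131). Hist1h2ak differed by 0.03 and did not pass as deposited, whereas after quantile normalisation it fell by 0.21 (limma adjusted p = 0.0168). The testis variant Hist1h2aa differed by 0.87 with overlapping groups (limma adjusted p = 0.178).

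By the brightest probe of each gene, the H2B genes held the largest fall among the members and a rise of more than 2-fold, with 3 of 6 members higher and 2 lower, or 2 and 3 after either rescaling. Hist1h2ba, the testis-specific H2B variant, read 4.20, 3.93 and 3.99 in wild type arrays and 1.03, 0.90 and 2.31 in knockout arrays. The knockout arrays were all lower and varied among themselves, and the log2 difference was -2.63 ± 0.41 (SE), or 6.19-fold (limma adjusted p = 0.00565). Its knockout signals approach the lowest values of the arrays (0.31 to 0.32). With a linear offset, which reduces the weight of dim signals, it was -1.88, and without knockout replicate 3, the highest of that group, it was -3.08. Hist1h2bh read 9.79, 9.68 and 9.66 against 10.87, 10.80 and 10.80. This gene, bright on all arrays, rose by 1.11 ± 0.06 (SE), or 2.16-fold (limma adjusted p = 0.000483). Hist1h2bk rose by 0.51 and Hist1h2bp by 0.33, whereas Hist1h2bm fell by 0.48. The rise of Hist1h2bp was 0.09 after quantile normalisation and 0.10 after cyclic loess, where it did not pass (limma adjusted p = 0.175 and 0.165). Its 3 probes disagreed: the second brightest rose by 1.23 as deposited, by 1.24 after quantile normalisation and by 1.26 after cyclic loess, and the third differed by -0.19 and did not pass. Hist3h2ba differed by -0.27 with groups that did not overlap (limma adjusted p = 0.0525).

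For H3, Hist1h3b read 4.31, 3.86 and 3.92 in wild type arrays and 5.39, 5.20 and 4.90 in knockout arrays. All knockout arrays were higher, with a rise of 1.13 ± 0.18 (SE), or 2.19-fold (limma adjusted p = 0.00656). Hist1h3g, the other H3 member, differed by 0.32 (limma adjusted p = 0.0543).

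Histone H4 was represented by a single symbol, Hist1h4a, which carries 7 probes, and these did not agree. Its brightest probe read 6.05, 6.16 and 6.02 against 5.69, 5.63 and 5.64, a fall of 0.42 ± 0.06 (SE; limma adjusted p = 0.00369). Over the 7 probes, 2 fell, 1 rose and 4 did not pass, with differences from -0.82 to 1.66. The probe that rose read 5.19, 5.43 and 5.25 in wild type arrays and 5.84, 5.81 and 5.84 in knockout arrays. The probe that fell furthest read 5.49, 5.56 and 5.49 against 4.50, 4.70 and 4.88. Both separated the genotypes fully, in opposite directions. The mean of the probes differed by 0.27 and the second brightest probe by 0.21, so no direction can be given for this gene. Histone genes of a family are near-identical in their coding parts, the probe sequences were not used here, and signal from related genes on 1 probe was not tested.

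**Figure D3:**
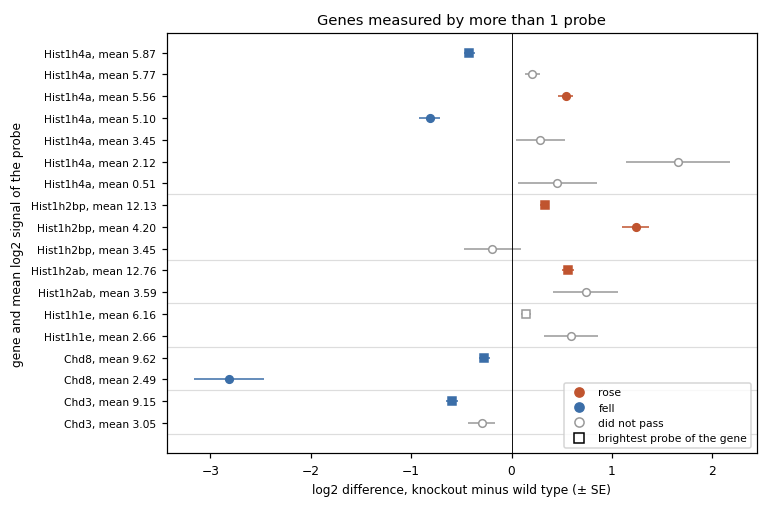
Log2 difference (± SE) of every probe of the 6 member genes with more than 1 probe, in order of mean signal within a gene; squares mark the brightest probe, filled points passed. The probes of Hist1h4a run from -0.82 to 1.66, and those of Chd8 stand at -0.27 and -2.82.

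S phase genes are given beside the histones because core histone mRNAs are made mainly while DNA is copied. Of 25 measured, 14 rose and 1 fell, or 10 and 5 after quantile normalisation, and the share that passed, 15 of 25, stands beside 44.3% of all genes. Most of the 25 had a mean signal of 7 or more, where 68.2% (7 to 10) and 71.8% (10 and above) of all genes passed. The median difference of the S phase genes was 0.23 as deposited and 0.09 after either rescaling. The sliding clamp Pcna rose by 1.14, the primase subunit Prim1 by 1.10 and the replication initiation factor Cdc45l by 0.95. Slbp, which binds the histone mRNA stem-loop, rose by 0.24, or by 0.08 after quantile normalisation, where it did not pass (limma adjusted p = 0.156). Among the histone members 7 rose and 4 fell, or 6 and 6 after quantile normalisation, with medians of 0.22 and 0.15. The falls in both counts include Hist1h4a by its brightest probe, a gene for which no direction can be given. Of 21 measured replacement histones and histone chaperones, 11 rose and 1 fell (10 and 5 after quantile normalisation). The macroH2A gene H2afy2 rose by 0.75, the assembly factor gene Chaf1b by 0.74 and the chaperone gene Asf1a by 0.70. How far these levels move with the histone values was not tested.

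Deacetylases of the zinc-dependent class gave 3 rises and 1 fall among 9 members, or 3 and 2 after either rescaling. Hdac4, a class IIa enzyme that shuttles between nucleus and cytoplasm, read 4.54, 4.65 and 4.83 in wild type arrays and 3.91, 3.62 and 4.10 in knockout arrays. It was lower on every knockout array, and fell by 0.80 ± 0.15 (SE; limma adjusted p = 0.0103). Hdac10, a polyamine deacetylase of the cytoplasm, read 7.85, 7.88 and 7.79 against 8.27, 8.31 and 8.35. These did not overlap, and the rise was 0.47 ± 0.05 (SE). The class I enzyme Hdac2 rose by 0.37 and the class IIa enzyme Hdac5 by 0.31, both smaller after quantile normalisation, at 0.20 and 0.15. Hdac3, the catalytic subunit of the NCoR and SMRT corepressors, differed by -0.21 (limma adjusted p = 0.0716), and after quantile normalisation it fell by 0.32. Hdac6, Hdac7a, Hdac9 and, near the lowest signals, Hdac11 did not pass.

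Among the sirtuins, NAD-dependent deacylases, 4 of 7 rose and none fell, whereas after either rescaling 4 rose and Sirt1 fell. The share that passed as deposited, 57.1%, stands beside 44.3% of all genes. Sirt2, a mainly cytoplasmic tubulin deacetylase, read 9.32, 9.28 and 9.28 in wild type arrays and 9.91, 9.90 and 9.83 in knockout arrays. Its groups stood well apart, with a rise of 0.59 ± 0.05 (SE; limma adjusted p = 0.000923). The mitochondrial Sirt4 read 4.31, 4.59 and 4.35 against 5.01, 4.94 and 4.89, a rise of 0.53 ± 0.09 (SE). Sirt3, the main mitochondrial deacetylase, rose by 0.37, and the nucleolar Sirt7 by 0.36. Sirt1 differed by -0.16 as deposited and did not pass (limma adjusted p = 0.0803), and after quantile normalisation it fell by 0.27 (0.0220). Sirt5 differed by 0.01 and Sirt6, of low signal, by 0.97, neither of which passed.

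The Jumonji-domain genes, mostly histone demethylases, gave 2 rises and 3 falls among 15 members, or 1 and 4 after quantile normalisation and 1 and 5 after cyclic loess. Jarid1d (now Kdm5d), a Y-linked demethylase, read 6.98, 7.05 and 6.97 in wild type arrays and 5.90, 5.72 and 5.76 in knockout arrays. It was well above the lowest signals on all 6 arrays and lower in each knockout array, and it fell by 1.21 ± 0.07 (SE), or 2.31-fold (limma adjusted p = 0.000513). Its X-linked counterpart Jarid1c differed by 0.55 and did not pass (limma adjusted p = 0.177). The sex of the mice is not given, and its part in the values of both genes was not tested. Jmjd2d (Kdm4d) read 2.33, 2.47 and 3.14 against 0.32, 1.54 and 1.25, the first knockout array at its lowest value. These groups did not overlap, and the log2 difference was -1.61 ± 0.39 (SE; limma adjusted p = 0.0255). With the linear offset it was -0.95. Without wild type replicate 2 or 3 or knockout replicate 3 it no longer passed, at adjusted p-values of 0.0628, 0.0724 and 0.0549 in limma.

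Jmjd4, a hydroxylase of a translation release factor, fell by 0.51. Jmjd2a (Kdm4a), a demethylase of the same subfamily as Jmjd2d, rose by 0.86, and Jmjd2c (Kdm4c) by 0.25. The call of Jmjd2a was lost without wild type replicate 2 or 3 or knockout replicate 3, at adjusted p-values of up to 0.0707 in limma. That of Jmjd2c was lost in 5 of the 6 fits that leave out an array, and held only without wild type replicate 3. Jmjd3 (Kdm6b), which removes the methyl mark set by Polycomb, differed by -0.17, and the Polycomb cofactor Jarid2 by 0.16, neither of which passed. Jarid1a and Jarid1b differed by -0.05 and -0.02, with 95% confidence intervals of -0.21 to 0.10 and -0.15 to 0.12.

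Of the DNA methyltransferase family, only Dnmt1, the enzyme that copies methylation to new DNA strands, passed as deposited. It read 10.17, 10.13 and 10.07 in wild type arrays and 11.20, 11.19 and 11.20 in knockout arrays. The arrays of each genotype lay close together, and the rise was 1.07 ± 0.05 (SE), or 2.11-fold (limma adjusted p = 0.000377). It was 0.89 after quantile normalisation and after cyclic loess. The de novo enzymes Dnmt3a and Dnmt3b differed by -0.20 and 0.14, neither of which passed (limma adjusted p = 0.0665 and 0.0608), and after quantile normalisation Dnmt3a fell by 0.31. Dnmt2 (now Trdmt1), which methylates transfer RNA, differed by -0.13, and Dnmt3l, the inactive partner of the de novo enzymes, was near the lowest signals.

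Of 9 measured methyl-DNA readers, repair and partner genes, 7 rose and 1 fell, also after quantile normalisation, with a median of 0.57. The share that passed was 88.9%, against 44.3% of all genes. Among all genes with a mean signal of 7 to 10 it was 68.2%, and at 10 and above 71.8%. The methyl-binding genes Mbd1, Mbd4 and Mbd2 rose by 0.88, 0.83 and 0.58. Uhrf1, which brings Dnmt1 to replicating DNA, rose by 0.42, or by 0.26 after quantile normalisation, while Uhrf2 fell by 0.28.

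Subunits of SWI/SNF and related remodellers passed in 9 of 13 members (69.2%, against 44.3% of all genes). Of these, 6 were higher and 3 lower, the same counts after either rescaling. Smarca2 and Smarca4 encode BRM and BRG1, the alternative ATPases of SWI/SNF complexes, and moved oppositely. Smarca2 read 6.55, 6.58 and 6.47 in wild type arrays and 7.74, 7.46 and 7.63 in knockout arrays. Every knockout array was higher, by 1.07 ± 0.09 (SE) on average, or 2.11-fold (limma adjusted p = 0.000955). Smarca4 went from 9.66 ± 0.07 to 9.19 ± 0.06 (SD, n = 3), a fall of 0.47 (limma adjusted p = 0.00345). The log2 ratio of the Smarca2 to the Smarca4 probe within an array was -3.12 ± 0.02 in wild type and -1.58 ± 0.12 (SD, n = 3) in knockout arrays. The pair was chosen after these values were seen, so the ratio only restates the opposite differences and was given no test.

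Among the shared subunits, Smarce1 rose by 0.83 and Smarcd1 by 0.52, whereas Smarcc1, a scaffold subunit, fell by 0.70. The rise of Smarcd1 did not pass without wild type replicate 2 or 3 or knockout replicate 1 or 3, at adjusted p-values of 0.102 to 0.119 in limma. The other scaffold gene Smarcc2 differed by -0.62 with overlapping groups (limma adjusted p = 0.108), and the core subunit gene Smarcb1 by 0.16 (0.0577). Both ISWI ATPase genes rose, Smarca5 by 0.46 and Smarca1 by 0.29. Smarca3 (now Hltf), a ubiquitin ligase and translocase at stalled replication forks, read 7.55, 7.46 and 7.55 against 8.51, 8.47 and 8.44. The genotypes were well separated, with a rise of 0.95 ± 0.05 (SE; limma adjusted p = 0.000513). Smarcal1, which reanneals DNA at stalled forks, fell by 0.45.

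The CHD remodellers gave 2 rises and 3 falls among 10 members, or 1 and 3 after either rescaling. Chd3, an ATPase of the NuRD corepressor, read 9.52, 9.45 and 9.37 in wild type arrays and 8.84, 8.86 and 8.86 in knockout arrays. It was lower in every knockout array, and fell by 0.59 ± 0.06 (SE; limma adjusted p = 0.00129), whereas its second, dimmer probe differed by -0.30 and did not pass. Its NuRD counterpart Chd4 was higher by 0.25 as deposited and by 0.08 after quantile normalisation, where it did not pass. The rise of Chd4 also did not pass without any 1 of the wild type arrays or without knockout replicate 2, at adjusted p-values of 0.0504 to 0.0543 in limma. Chd7, a remodeller of enhancers, read 8.63, 8.62 and 8.46 against 8.05, 7.98 and 8.10, a fall of 0.52 ± 0.07 (SE). Chd2 rose by 0.34. Chd9, of low signal, differed by 1.23 with groups that did not overlap but did not pass (limma adjusted p = 0.0863, 95% confidence interval 0.06 to 2.40).

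Chd8, which binds beta-catenin and restrains Wnt target genes, was measured by 2 probes whose differences were unequal in size. The brighter read 9.79, 9.78 and 9.69 in wild type arrays and 9.43, 9.52 and 9.49 in knockout arrays, a fall of 0.27 ± 0.05 (SE; limma adjusted p = 0.0125). Without wild type replicate 2 that call was lost, at an adjusted p of 0.0516. The dimmer read 3.87, 4.0 and 3.82 against 1.45, 0.31 and 1.48, with knockout replicate 2 at the lowest value of its array. Both probes were lower in every knockout array, and the dimmer differed by -2.82 ± 0.35 (SE; limma adjusted p = 0.0028). With the linear offset the dimmer probe differed by -1.93, and no fold is given since 1 array is at its floor. Within an array, the log2 ratio of the dimmer to the brighter probe was -5.86 ± 0.07 in wild type and -8.40 ± 0.70 (SD, n = 3) in knockout arrays. The change of -2.54 had p = 0.1 in a two-sided exact permutation test, the smallest value that 3 arrays against 3 allow, and with the linear offset it was -1.66. Which parts of the transcript the probes read is not known here.

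Among the bromodomain genes 2 of 5 rose and 1 fell, also after quantile normalisation, and 1 rose and 1 fell after cyclic loess. Brd7, a subunit of a SWI/SNF complex, read 10.83, 10.85 and 10.82 in wild type arrays and 11.27, 11.32 and 11.35 in knockout arrays. The groups stood apart, with a rise of 0.48 ± 0.05 (SE; limma adjusted p = 0.00139). Brd2, which binds acetylated histones at active genes, read 11.16, 11.16 and 11.09 against 11.55, 11.49 and 11.47. All knockout arrays were higher, by 0.36 ± 0.05 (SE), but after cyclic loess the rise was 0.16 (limma adjusted p = 0.0540). Brd1 fell by 0.17, and this call was lost when any 1 array was left out. Brd3, of the same family as Brd2, and Brd8 differed by 0.07 and -0.03, with 95% confidence intervals of -0.08 to 0.21 and -0.17 to 0.11.

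**Figure D4:**
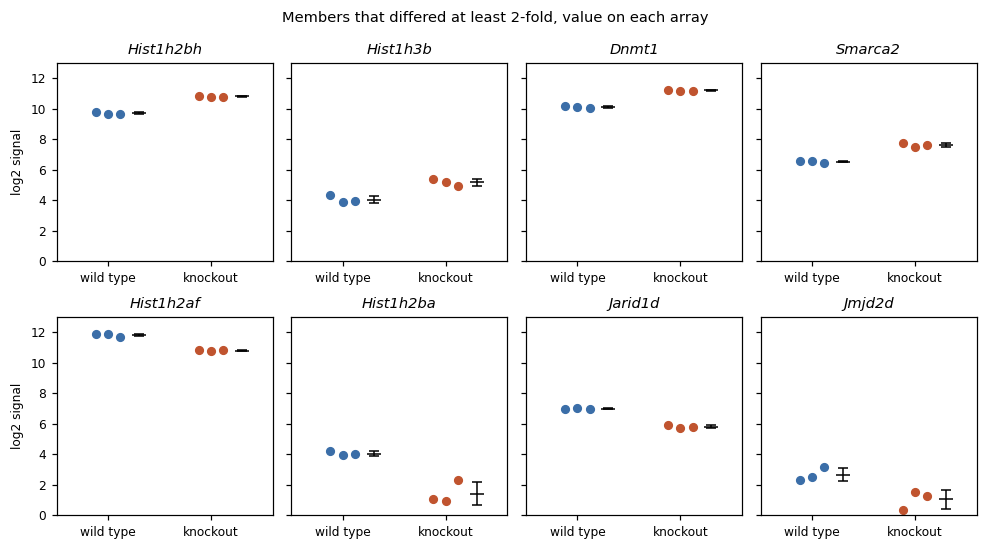
Log2 signal on each array for the 8 members that passed with a difference of at least 2-fold; points are arrays, bars the mean ± SD of 3 arrays. In every panel the genotypes do not overlap, and the knockout arrays of Hist1h2ba (0.90 to 2.31) and Jmjd2d (0.32 to 1.54) are low and spread.

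Genes outside the symbol rule, on lists of other chromatin genes and of the S phase genes above, likewise held rises and falls. Among the 158 with a probe, 70 rose and 19 fell, or 60 and 37 after quantile normalisation. Their median was 0.22 as deposited, beside 0.14 over all genes, and 0.12 after quantile normalisation, beside 0.05. The share called was 56.3%, against 44.3% of all genes. These shares were not matched for signal, and of all genes 15.8% passed below 4 but 68.2% between 7 and 10. Among 14 acetyltransferase genes, 3 rose and 4 fell, led by the scaffold Trrap (-0.90), Myst4 (0.71) and the coactivator Ep300 (-0.65). Among 34 methyltransferase and partner genes, 9 rose and 7 fell (7 and 9 after quantile normalisation), led by Setd7 (-1.32), Prdm2 (-0.64) and Wdr5 (-0.62). Of 22 Polycomb genes, 10 rose and 3 fell (10 and 7), led by Phc3 (-1.15), Phc1 (0.74) and Phf1 (0.62). The Polycomb methyltransferase Ezh2 differed by -0.09 as deposited and did not pass, whereas after quantile normalisation it fell by 0.28. Of 17 corepressor and heterochromatin genes, 9 rose and 1 fell (8 and 3), led by Cbx3 (0.85), Mta3 (0.83) and Rbbp4 (0.65). Of 16 remodeller partners, 7 rose and 1 fell (5 and 3), led by Atrx (0.87), Dpf2 (0.78) and Ep400 (-0.68).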

How the data were processed

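The deposited table gives log2 signals, quantile normalised by the authors per the labels, although only the array medians are equal. The base of 2 was inferred from their range. Phenol-chloroform extraction and Cy5 are stated in the labels, whose labelling text also names a microRNA kit and tumour tissue, unlike the design. Scanner and background correction: not given in the sources used here. Probes were named from the platform annotation, and symbols updated from RefSeq.

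Differences are knockout minus wild type, fitted over all 23473 probes with lmFit and eBayes in limma 3.58.1 (R 4.3.3), with no further normalisation, two-sided, and Benjamini-Hochberg adjustment; residual degrees of freedom were 4. Of 5 within-array probe pairs computed, only the Chd8 pair, set by the member rule, is given a test; its adjusted p over the 5 is also 0.1. The exact permutation test used scipy 1.17.1, and plots were made with matplotlib 3.10.9. Simulated data were used to test the model. Members and lists were chosen with earlier results of these data known. Values on every array are given for members that passed with at least a 2-fold difference, for the 2 largest that passed in each family and for both Chd8 probes; from each other list, the 3 largest differences that passed are named, and Slbp, Uhrf1, Uhrf2 and Ezh2 were added after their values were seen. A probe within 0.5 of the lowest value of an array was taken as near the lowest signals. Alternatives were other scalings, a linear offset, filters on dim probes, other variance settings, a replicate block, leaving out each array and other probes of a gene. Precision is limited by the number of arrays.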

Additional observations from a re-analysis of the deposited data

How the results depend on the processing

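Of the 42 members called, 34 kept their call under every scaling, offset, filter on dim probes in which they were tested, variance setting, array weighting and replicate block, and 32 also without each array. With the probe of a gene and all arrays kept, the calls lost were those of Chd4, Hist1h2bp, Jmjd2c, Brd1, Brd2, Sirt3, Smarcd1 and Chd8. With the second brightest probe, the calls of Chd3, Hist1h2ab and Hist1h4a were also lost. These genes remain in the counts of 34 and 32, which leave out the fits with other probes. Across the alternatives the count of members that rose ran from 23 to 34 and of those that fell from 12 to 22, against 27 and 15, and leaving out 1 array gave 24 to 27 and 12 to 15. The change between the Chd8 probes was -1.66 with the linear offset, against -2.54, and -2.76 to -2.14 without 1 array; the dimmer probe was not tested after the filters on dim probes. Hist1h4a turned to 0.27 with the mean of its probes and 0.21 with its second brightest, which did not pass (limma adjusted p = 0.0733). Same-numbered arrays did not deviate together across probes (correlations of 0.0077, -0.0013 and -0.0020). The numbers therefore mark no broad shared deviation, but this cannot exclude that samples were paired. With the replicate block 24 members rose and 13 fell, and 71 of the other chromatin and S phase genes passed against 89. Signals near the lowest values limit the sizes for Hist1h2ba, Jmjd2d and the dimmer Chd8 probe.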
